A study of Homo sapiens with 6 samples.

Results

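Cholesterol synthesis and its feedback control were examined through 8 genes, namely SREBF2, INSIG1, HMGCS1, IDI1, FDPS, FDFT1, SQLE and ACAT2. They were taken by symbol from the 17534 genes of the deposited count table. All 8 were present, and all 8 were among the 13060 genes with enough counts to be tested. The 6 libraries came from NCI-H1703, a human cell line that the labels assign to lung squamous cell carcinoma. In 3 libraries the cells carried a short hairpin RNA (shRNA) against PPM1G, a nuclear serine/threonine phosphatase of the PP2C family, under the genotype label Sh-PPM1G. The other 3 libraries were controls with the genotype label Sh-NC, whereas the series text calls the control cells wild-type. The labels do not tell the number of hairpins, whether the cells were clones, or whether each replicate was a culture of its own. The p-values therefore reflect the spread among these libraries, which may be technical.

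Cholesterol is built from acetyl-CoA through mevalonate, the isoprenoid diphosphates, squalene and a series of sterols. The transcription factor SREBP2, the product of SREBF2, activates most genes of this pathway together with genes of lipoprotein uptake. When sterols are plentiful, INSIG proteins hold SREBP2 and its escort SCAP in the endoplasmic reticulum. When sterols are scarce, the complex moves to the Golgi apparatus, where proteases release the active factor. INSIG1 and SREBF2 are themselves target genes of SREBP2, so the pathway feeds back on its own regulators. Tumour cells draw on this pathway for membranes and for isoprenoid groups attached to proteins.

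Library totals were 31337553 to 35838246 counts. PPM1G itself stood at 182, 194 and 188 CPM (counts scaled to library size with TMM factors) in the PPM1G shRNA libraries, against 333, 308 and 324 CPM in control libraries. It fell by 0.77 on the log2 scale (SE 0.03, adjusted p = 3.3e-20 in edgeR's quasi-likelihood test). The labelled cell type was set beside its markers. Of 5 squamous markers analysed, SOX2 averaged 10.6 CPM in PPM1G shRNA libraries and 22.7 CPM in control libraries, TP63 was below 2 CPM in every library, and KRT6A, KRT14 and DSG3 had at most 2 counts in any library. The lung lineage factor gene NKX2-1, a marker of adenocarcinoma, averaged 121 CPM in PPM1G shRNA libraries and 114 CPM in control libraries, and NAPSA, another adenocarcinoma marker, averaged 21.8 CPM in PPM1G shRNA libraries and 2.16 CPM in control libraries. The remaining adenocarcinoma marker analysed, SFTPB, had at most 3 counts in any library. Among the squamous markers analysed, SOX2 alone was above 2 CPM. Of 8 immune and endothelial markers, 5 had at most 11 counts in any library, among them PTPRC, CD3E, CD14 and CDH5. The summed level of the 8 was 554 to 587 CPM in PPM1G shRNA libraries and 1251 to 1306 CPM in control libraries, nearly all of it CD68, a lysosomal membrane protein. Without CD68 the sums were 3.47 to 4.29 CPM in PPM1G shRNA libraries and 5.4 to 7.25 CPM in control libraries. Within these sums the endothelial markers PECAM1 and VWF moved in opposite directions. PECAM1 averaged 1.07 CPM in PPM1G shRNA libraries and 5.31 CPM in control libraries. VWF averaged 2.58 CPM in PPM1G shRNA libraries and 0.524 CPM in control libraries. The part of the 8 markers in the results was not tested.

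The sequence before the gene start was read for the members with an entry in the RefSeq promoter table (build GRCh38.p14), because SREBP2 acts through short elements there. These members were SREBF2, INSIG1, FDPS, HMGCS1 and IDI1, and the stretches show which of the searched motifs lie close to the start of a regulator and of enzymes that behaved differently. The motifs searched on both strands were TCACNCCAC, a form of the sterol regulatory element, TCACGTGA, a palindrome around an E-box that SREBPs are also known to bind, and CCAAT, the element of NF-Y, a factor known to act with SREBPs. Each line gives the 160 bases before an annotated start, from 5′ to 3′ on the gene's strand, with matches on either strand in capitals (ATTGG is CCAAT on the other strand).
SREBF2, chr22:41832945-41833104, plus strand: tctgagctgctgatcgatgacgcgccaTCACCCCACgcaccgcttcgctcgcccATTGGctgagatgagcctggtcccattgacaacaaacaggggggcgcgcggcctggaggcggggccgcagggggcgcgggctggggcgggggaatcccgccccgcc
INSIG1, chr7:155297718-155297877, plus strand: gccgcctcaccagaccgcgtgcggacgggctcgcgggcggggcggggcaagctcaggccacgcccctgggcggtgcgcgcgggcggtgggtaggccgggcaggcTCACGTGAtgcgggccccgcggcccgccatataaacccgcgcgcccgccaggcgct
FDPS, chr1:155308706-155308865, plus strand: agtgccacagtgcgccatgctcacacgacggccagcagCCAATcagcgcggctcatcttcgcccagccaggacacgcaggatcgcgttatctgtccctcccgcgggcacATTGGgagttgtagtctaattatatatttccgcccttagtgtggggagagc
HMGCS1, chr5:43313413-43313572, minus strand: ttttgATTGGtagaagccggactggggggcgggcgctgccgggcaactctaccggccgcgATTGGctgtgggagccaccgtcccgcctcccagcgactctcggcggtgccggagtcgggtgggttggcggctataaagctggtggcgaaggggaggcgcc
IDI1, chr10:1048887-1049046, minus strand: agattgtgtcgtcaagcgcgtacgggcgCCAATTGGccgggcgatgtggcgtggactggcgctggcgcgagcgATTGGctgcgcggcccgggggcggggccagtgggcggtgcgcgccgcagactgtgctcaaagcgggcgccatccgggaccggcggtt
SREBF2 held TCACCCCAC, a match to the first motif, beginning 133 bases before its start, with a CCAAT element beginning 106 bases before it. Matches to that first motif were found in 1.13% of 35116 promoter windows of 300 bases. INSIG1 held TCACGTGA, found in 0.98% of the windows, beginning 56 bases before its start, and a CCAAT element further upstream of the stretch shown. FDPS, HMGCS1 and IDI1 held only CCAAT elements among the motifs searched, and 34.6% of all windows held at least 1. In the IDI1 stretch, CCAAT elements of opposite strands overlap and read as CCAATTGG. HMGCS1 has another annotated start with no match in its window. The IDI1 stretch lies before an inner start, inside the gene as annotated. The window of its outermost start held no match, and that of a further inner start held CCAAT elements only. A match is a run of letters and was not tested as a binding site.

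To see how this pathway stood at the lower PPM1G level, the 3 PPM1G shRNA libraries were compared with the 3 control libraries across all tested genes. Enzyme genes at the entry and in the middle of the pathway fell most: ACAT2, FDPS and SQLE each fell by more than 2-fold. FDFT1 fell to 0.595 of its control level, and the regulators SREBF2 and INSIG1 fell by less, to 0.752 and 0.794. HMGCS1 did not pass the test, and IDI1 rose slightly. In all, 7 of the 8 genes passed an adjusted p of 0.05, against 82.9% of all genes tested. Of those, 6 fell, against 41.3% of all genes, and 1 rose, against 41.5% of all genes. Falls of at least 2-fold were seen in 3 of the 8, against 12.4% of all genes. Since most of the transcriptome changed, a call for a single gene here says little by itself, and its size carries more. The median log2 fold change was -0.58 over the 8 genes and 0.01 over all genes tested. The groups were fully separate for 7 of the 8 genes, against 83.7% of all genes. Of these, 6 were lower in every PPM1G shRNA library, against 41.8% of all genes, and 1 was higher, against 41.9%. In bulk RNA a lower level in every cell and fewer cells with the transcript cannot be told apart.

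**Figure D1:**
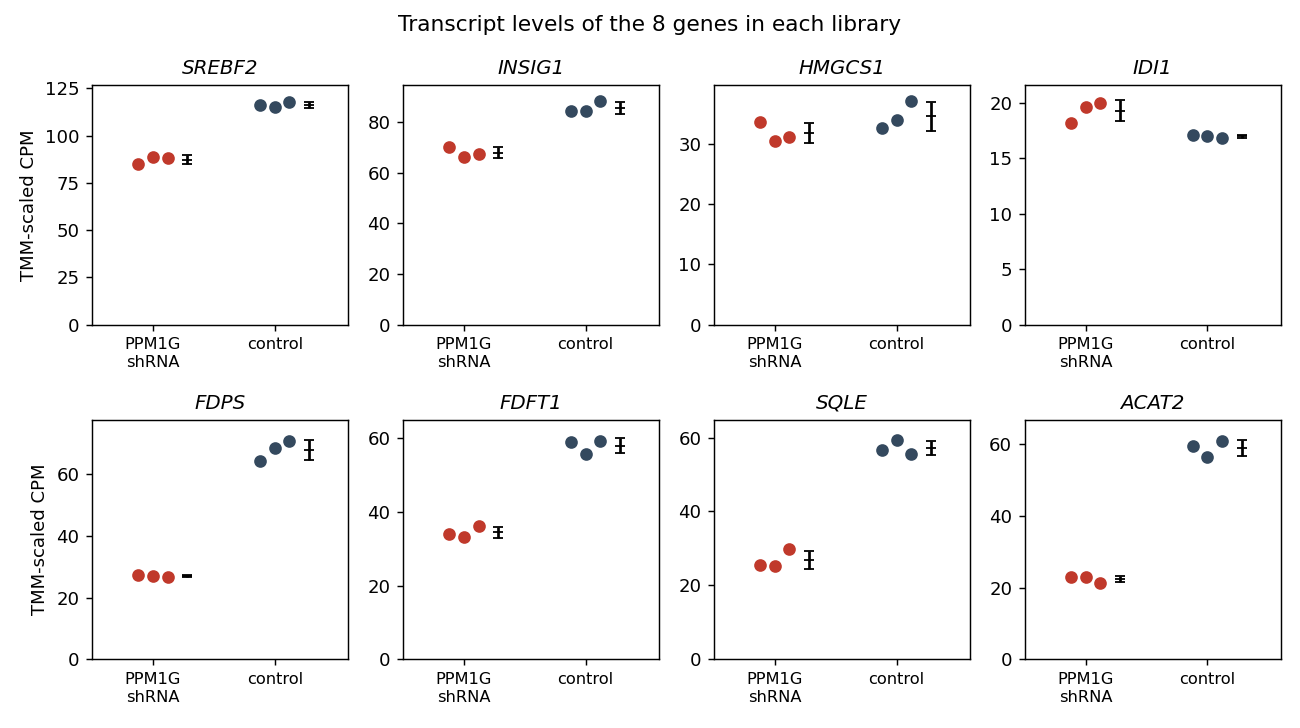
Transcript level of each of the 8 genes in TMM-scaled CPM, with PPM1G shRNA libraries in red on the left and control libraries in dark blue on the right of each panel; bars beside the points are mean and SD (n = 3). The groups are separate in every panel except that of HMGCS1, and IDI1 is the only gene with its PPM1G shRNA libraries above the controls.

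The regulator genes come first. SREBF2 (Entrez 6721; chromosome 22, 41833105 to 41907305) encodes the transcription factor SREBP2. It stood at 84.9, 88.9 and 88.3 CPM in PPM1G shRNA libraries, against 116, 115 and 118 CPM in control libraries. All PPM1G shRNA libraries lay below all controls, and the spread within each group was small beside the gap. The fall was 0.41 on the log2 scale (SE 0.04, adjusted p = 8.8e-12), and 29.8% of tested genes had a lower fold change. INSIG1 (Entrez 3638; chromosome 7, 155297878 to 155310235) encodes the sterol-regulated retention protein. Its libraries held 70.3, 66.1 and 67.5 CPM with the PPM1G shRNA, against 84.4, 84.2 and 88.2 CPM in controls. The groups were again separate, with a fall of 0.33 (SE 0.04, adjusted p = 1.1e-08). SREBF2 overlaps SREBF2-AS1 and INSIG1 overlaps INSIG1-DT, and without a stated strand setting those reads cannot be told apart.

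At the entry of the pathway, ACAT2 (Entrez 39; chromosome 6, 159762045 to 159779112) encodes the cytosolic thiolase that joins acetyl-CoA units to acetoacetyl-CoA. ACAT2 stood at 22.9, 22.9 and 21.4 CPM in PPM1G shRNA libraries, against 59.3, 56.4 and 60.7 CPM in control libraries. It fell to 0.381 of its control level, the lowest ratio among the 8 genes (log2 fold change -1.39, SE 0.05, adjusted p = 1.3e-21). ACAT2 overlaps the chaperonin gene TCP1 over 615 bp and SOD2 over 237 bp in the RefSeq annotation. TCP1 itself averaged 186 ± 2.2 CPM in PPM1G shRNA libraries and 312 ± 3.4 CPM in control libraries (SD, n = 3 each), a log2 fold change of -0.75 (SE 0.03) and the part of shared reads in the ACAT2 value was not tested. The mitochondrial thiolase gene ACAT1, a paralog with a role in ketone and isoleucine breakdown, averaged 111 ± 2.7 CPM in PPM1G shRNA libraries and 117 ± 1.0 CPM in controls and did not pass the test (log2 fold change -0.07, SE 0.04, adjusted p = 0.057). Its sign turned with library totals in place of TMM factors, to 0.03.

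HMGCS1 (Entrez 3157; chromosome 5, 43287470 to 43313412) encodes the cytosolic synthase that makes HMG-CoA. It stood at 33.7, 30.5 and 31.2 CPM in PPM1G shRNA libraries and at 32.6, 34.0 and 37.2 CPM in control libraries. The groups overlapped, and the difference did not pass the test (log2 fold change -0.12, SE 0.06, adjusted p = 0.053). This value lies at the threshold: the adjusted p was 0.020 without control replicate 1, 0.027 without PPM1G shRNA replicate 1 and 0.046 with RLE size factors, and with library totals the log2 fold change was -0.02.

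IDI1 (Entrez 3422; chromosome 10, 1039152 to 1056704) encodes the isomerase that makes dimethylallyl diphosphate. Its libraries held 18.2, 19.6 and 20 CPM with the PPM1G shRNA, against 17.1, 17 and 16.8 CPM in controls. All PPM1G shRNA libraries lay above all controls, by a small margin. IDI1 rose by 0.19 on the log2 scale (SE 0.07, adjusted p = 0.020). Without PPM1G shRNA replicate 2 the adjusted p was 0.060, and without PPM1G shRNA replicate 3 it was 0.077. IDI1 overlaps IDI2-AS1 and WDR37, and RefSeq names 3 pseudogenes of it that may share reads.

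FDPS (Entrez 2224; chromosome 1, 155308866 to 155320665) encodes the synthase of farnesyl diphosphate, from which the sterol, dolichol, ubiquinone and protein prenylation branches part. FDPS stood at 27.5, 27.0 and 26.7 CPM in PPM1G shRNA libraries, against 64.4, 68.4 and 70.7 CPM in control libraries. Its PPM1G shRNA libraries were nearly level with each other and far below every control. The fall was 1.33 on the log2 scale (SE 0.05, adjusted p = 7.8e-22), to 0.399 of the control level, and 7.96% of tested genes had a lower fold change. RefSeq names 10 pseudogenes of FDPS that may share its reads, and the gene overlaps the non-coding RUSC1-AS1.

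The steps that commit farnesyl diphosphate to sterols are catalysed by the products of FDFT1 and SQLE, both on chromosome 8. FDFT1 (Entrez 2222), the squalene synthase gene, stood at 33.9, 33.2 and 36.1 CPM in PPM1G shRNA libraries, against 58.8, 55.5 and 59.2 CPM in control libraries. SQLE (Entrez 6713) encodes squalene monooxygenase, which makes squalene epoxide, and stood at 25.5, 25.4 and 29.8 CPM with the PPM1G shRNA, against 56.7, 59.4 and 55.6 CPM in controls. Neither gene's groups overlapped, and PPM1G shRNA replicate 3 was the highest of its group for both. FDFT1 fell by 0.75 on the log2 scale (SE 0.05, adjusted p = 3.7e-15). It overlaps the non-coding LOC105379243 over 5774 bp, and the part of shared reads in its value was not tested. SQLE fell by 1.09 (SE 0.06, adjusted p = 9.4e-18), to 0.470 of its control level, and by 0.99 with library totals in place of TMM factors.

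Levels between genes were compared as FPKM, which the authors scaled by gene length and library total. In PPM1G shRNA libraries INSIG1 was highest at 26.6 FPKM, followed by FDPS at 16.5, ACAT2 at 12.8, SREBF2 at 12.4, FDFT1 at 8.5, SQLE at 8.49, HMGCS1 at 5.11 and IDI1 at 3.34 FPKM (means, n = 3). In control libraries FDPS was highest at 38.6 FPKM, followed by INSIG1 and ACAT2 at 31.2 each, SQLE at 16.9, SREBF2 at 15.4, FDFT1 at 13.3, HMGCS1 at 5.19 and IDI1 at 2.74 FPKM. Neighbours whose ranges overlapped were ACAT2 with SREBF2 and FDFT1 with SQLE in PPM1G shRNA libraries, and INSIG1 with ACAT2 in control libraries. The summed FPKM of the 6 enzyme genes was 54.1 to 55.4 in PPM1G shRNA libraries and 106 to 111 in control libraries.

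**Figure D2:**
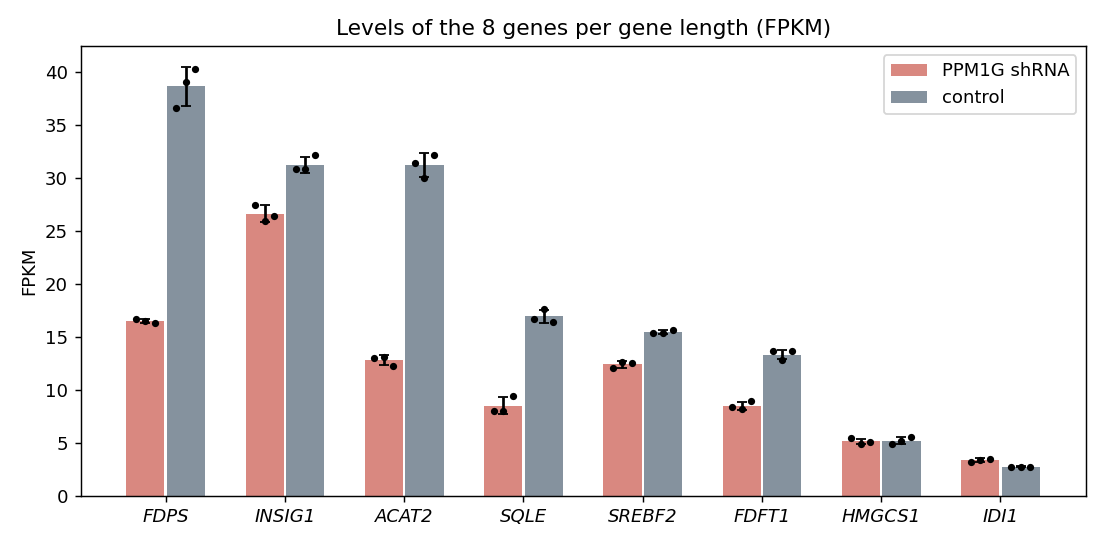
Level of the 8 genes in FPKM, with PPM1G shRNA (light red) left of control (grey-blue); bars are means, error bars SD and points the 3 libraries of each group. FDPS stands at 16.5 FPKM with the PPM1G shRNA and 38.6 FPKM in controls, while HMGCS1 stands at 5.11 and 5.19 FPKM.

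Ratios within a library do not depend on how libraries were scaled, and 6 of them were taken after the values had been seen. They are given as descriptions, since 3 libraries against 3 cannot go below p = 0.1 in an exact two-sided permutation test. FDPS over HMGCS1 was 3.1, 3.36 and 3.25 in PPM1G shRNA libraries and 7.49, 7.62 and 7.21 in control libraries. FDPS over IDI1 was 4.69 to 5.32 with the PPM1G shRNA and 13.3 to 14.8 in controls. Both ratios were lower in every PPM1G shRNA library than in any control library. ACAT2 over its paralog ACAT1 was 0.243 to 0.261 in PPM1G shRNA libraries and 0.6 to 0.651 in control libraries. SREBF2 over SREBF1 was 1.75 to 1.94 with the PPM1G shRNA and 2.86 to 3.17 in controls, and INSIG1 over INSIG2 was 6.94 to 8.26 with the PPM1G shRNA and 8.64 to 9.44 in controls. INSIG1 over SREBF2 was 2.05 to 2.28 in PPM1G shRNA libraries and 2.01 to 2.06 in control libraries, and here alone among the 6 ratios the groups overlapped.

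The other synthesis enzymes moved in both directions. Over the 21 enzyme genes, with 6 of the 8 genes included, 10 fell, 5 rose and 6 did not pass the test. Their median log2 fold change was -0.21. Of all genes tested, 41.3% fell and 41.5% rose. The mevalonate kinase gene MVK fell by 0.35 (SE 0.10, adjusted p = 0.0023), while PMVK and MVD, the kinase and decarboxylase that follow, did not pass (adjusted p = 0.81 and 0.51). Of 12 genes acting after squalene epoxide, 4 rose, 4 fell and 4 did not pass. EBP, the sterol isomerase gene, fell by 0.82 (SE 0.06).

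Between these falling steps lay genes that rose. The C14 sterol reductases are a pair: TM7SF2 rose by 1.21 (SE 0.10, adjusted p = 2.3e-12), averaging 14.2 ± 1.5 CPM in PPM1G shRNA libraries and 6.12 ± 0.68 CPM in controls, and LBR, which is also a nuclear envelope receptor of lamin B, fell by 0.79 (SE 0.06, adjusted p = 2.8e-13). Chosen after their values were seen, LSS, the lanosterol synthase gene directly after SQLE, rose by 0.38 (SE 0.05, adjusted p = 4.2e-08), and CYP51A1, the lanosterol demethylase gene, rose by 0.13 (SE 0.04, adjusted p = 0.0091).

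**Figure D3:**
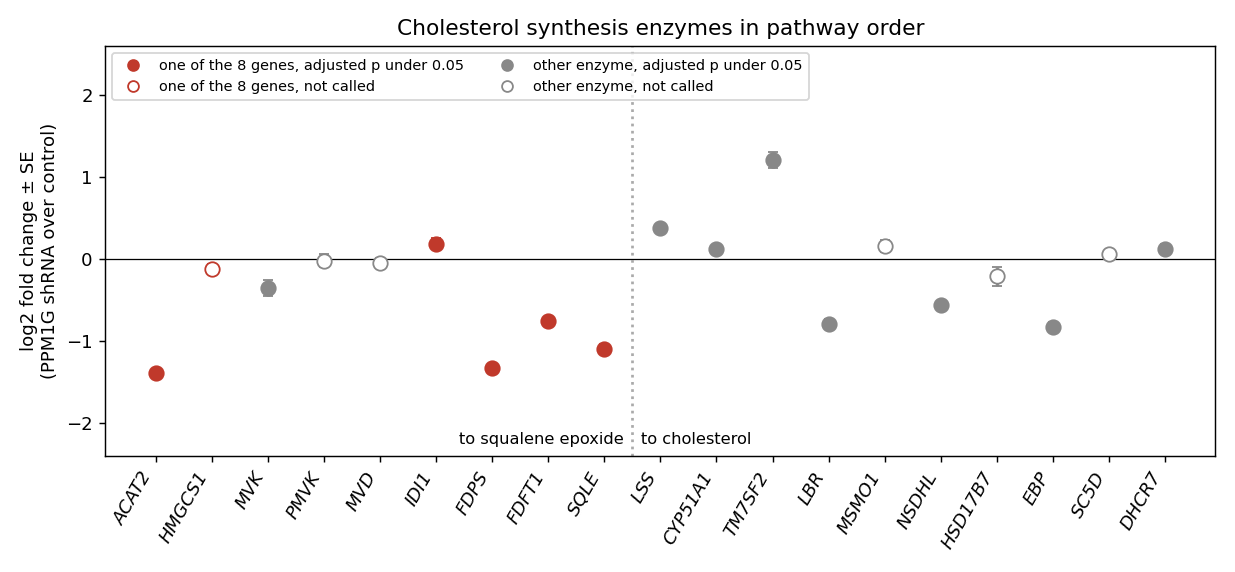
Log2 fold change (PPM1G shRNA over control, ± SE) of synthesis enzyme genes in pathway order; red marks the 6 enzymes among the 8 genes, grey the others, and open symbols did not pass an adjusted p of 0.05. ACAT2 at -1.39 and FDPS at -1.33 are the lowest shown, and TM7SF2 at 1.21 is the highest.

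The proteins that hold, escort and cleave SREBP2 were then examined beside SREBF2 and INSIG1. Of 14 such genes, 8 fell, 4 rose and 2 did not pass, with a median log2 fold change of -0.15. Falls made up 41.3% and rises 41.5% of all genes tested. SCAP, the escort and sterol sensor, averaged 102 ± 4.1 CPM in PPM1G shRNA libraries and 131 ± 3.7 CPM in control libraries (SD, n = 3 each), a fall of 0.36 (SE 0.04, adjusted p = 2.8e-10). INSIG2, the retention protein that is less dependent on SREBP2, did not pass (log2 fold change -0.12, SE 0.09, adjusted p = 0.23). SREBF1 encodes SREBP1a and SREBP1c, of which SREBP1c acts mainly on fatty acid synthesis. SREBF1 rose by 0.29 (SE 0.06, adjusted p = 6.3e-05), averaging 32.7 ± 1.0 CPM in PPM1G shRNA libraries and 26.7 ± 1.4 CPM in controls. The genes whose centred log2 CPM lay nearest to that of SREBF2 over the 6 libraries, among the other pathway genes, included SCAP and PDSS2, with root mean square distances of 0.057 and 0.064. This distance includes the group difference itself, a log2 fold change of -0.41 for SREBF2, -0.36 for SCAP and -0.49 for PDSS2. Shared control of these genes was not tested.

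Sterol-driven protein degradation in the endoplasmic reticulum involves ubiquitin ligases and their partners, and these moved both ways. RNF139, a membrane ubiquitin ligase also called TRC8, rose by 1.11 (SE 0.04, adjusted p = 7.2e-23), averaging 138 ± 0.92 CPM in PPM1G shRNA libraries and 63.5 ± 2.0 CPM in control libraries. ERLIN1, a membrane scaffold of the degradation machinery, fell by 1.05 (SE 0.03, adjusted p = 9.0e-24), and the ligase gene RNF145 fell by 0.62 (SE 0.04, adjusted p = 3.4e-16). MARCHF6, chosen after its value was seen, encodes the ubiquitin ligase of squalene monooxygenase and rose by 0.33 (SE 0.03, adjusted p = 2.3e-11).

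Genes of lipoprotein uptake and sterol transport mostly fell. Among 13 genes tested there were 10 falls and 3 rises, against 41.3% and 41.5% of all genes tested. The median log2 fold change was -0.79. TMEM97, an NPC1-binding membrane protein, fell by 1.92 (SE 0.07, adjusted p = 1.1e-21), and NPC1, which exports cholesterol from lysosomes, fell by 1.24 (SE 0.03, adjusted p = 5.0e-27). SCARB1, the receptor for high-density lipoprotein, rose by 1.52 (SE 0.09, adjusted p = 2.3e-16), averaging 21.5 ± 1.2 CPM in PPM1G shRNA libraries and 7.47 ± 0.99 CPM in controls.

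Most tested genes of the liver X receptors (LXR), sterol efflux and storage rose. Of 7 tested genes, 5 rose and 1 fell, against 41.5% and 41.3% of all genes tested. The median log2 fold change of the 7 was 0.84. ABCA1, the cholesterol exporter and an LXR target, stood at 129, 133 and 139 CPM in PPM1G shRNA libraries, against 66.5, 65.2 and 62.6 CPM in control libraries. It rose by 1.04 (SE 0.04, adjusted p = 1.4e-21). The receptor genes NR1H3 and NR1H2 rose by 1.50 (SE 0.14, adjusted p = 7.4e-12) and 0.84 (SE 0.05, adjusted p = 6.5e-17). Of the 7, APOE did not pass (log2 fold change 0.27, SE 0.14, adjusted p = 0.076), with overlapping groups. SOAT1 was the gene that fell, by 0.12 (SE 0.03, adjusted p = 0.0028). MYLIP, chosen after its value was seen, is an LXR target that encodes a ubiquitin ligase, and rose by 1.01 (SE 0.07, adjusted p = 7.9e-15). MYLIP was counted among the uptake genes above and is not among these 7. The other LXR target exporter, ABCG1, had at most 1 count in any library. CH25H, which makes 25-hydroxycholesterol, had 33, 50 and 24 counts in PPM1G shRNA libraries against 4, 3 and 5 counts in control libraries, a rise of 3.07 (SE 0.46, adjusted p = 3.4e-07) at a low level, and of 0.59 on the log2(FPKM + 1) scale, which understates changes of low genes.

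**Figure D4:**
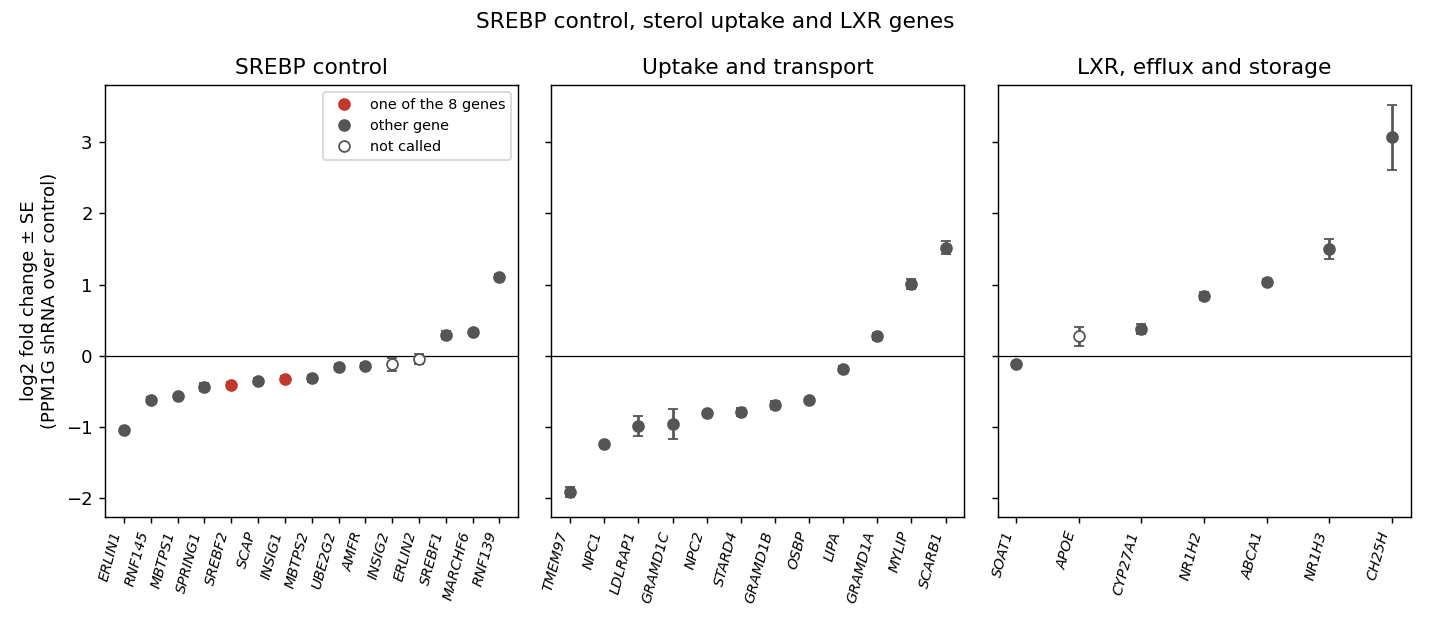
Log2 fold change (PPM1G shRNA over control, ± SE) of genes of SREBP control, of sterol uptake and transport, and of LXR, efflux and storage, sorted within each panel; red marks SREBF2 and INSIG1, and open symbols did not pass an adjusted p of 0.05. TMEM97 at -1.92 and NPC1 at -1.24 lie low in the middle panel, and ABCA1 at 1.04 and NR1H3 at 1.50 lie high in the right panel.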

How the data were processed

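RNA sequencing of 3 PPM1G shRNA and 3 control libraries was analysed from the deposited tables. One deposited table gives raw read counts, whole and not normalized. The deposited FPKM table holds the same counts divided by 1 length per gene and the library total. Its factor differed between libraries by at most 5.7e-07 in relative terms. The build was GRCh38, per the submitters' processing notes. Aligner, counting program, annotation and strand setting: not given in the sources used here.

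Genes passing edgeR's expression filter (minimum count 10) were fitted with edgeR 4.0.16 (limma 3.58.1, R 4.3.3) using TMM factors and a robust quasi-likelihood F-test on group. P-values were adjusted by Benjamini-Hochberg across the 13060 genes (threshold 0.05). Log2 fold changes are PPM1G shRNA minus control, with SE as the absolute fold change over the square root of F. CPM are TMM-scaled. The biological coefficient of variation was 0.0393, and levels are relative within each library.

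The members and gene lists were chosen with earlier results of these data known, so no list test was made. Lists are described by counts and medians. Named were the 8 genes, PPM1G, other pathway regulators (SREBF1, INSIG2, SCAP) and paralogs such as ACAT1 (the marker KRT5 was not analysed here). Some genes under this rule are not reported here by name, though counts over lists include them. Up to 4 genes per list with the largest change past the threshold and the 3 nearest to SREBF2 were added. Alternatives were DESeq2 1.42.0, other scalings and filters, limma on log2(FPKM + 1) and log2(FPKM + 0.1), a replicate block and leaving out each library. Libraries of a group differed beyond sampling noise in each pair (chi-square per degree of freedom 2.69 to 6.44). This does not tell whether they were separate cultures, since technical steps may add such spread. Each library was counted as a replicate, following the labels.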

Additional observations from a re-analysis of the deposited data

How the results depend on the processing

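Under the 15 alternatives, SREBF2, INSIG1, FDPS, FDFT1, SQLE and ACAT2 fell and passed the threshold each time, with log2 fold changes of -0.42 to -0.29, -0.36 to -0.22, -1.36 to -1.18, -0.78 to -0.59, -1.17 to -0.92 and -1.42 to -1.23. HMGCS1 passed the threshold with RLE size factors (-0.13), and leaving out single libraries gave -0.16 to -0.07, with calls without control replicate 1 and without PPM1G shRNA replicate 1. IDI1 ranged from 0.16 to 0.23 when single libraries were left out and lost its call without PPM1G shRNA replicate 2 or 3, so that the number of the 8 genes that rose was 0 to 1. On log2(FPKM + 1), which shrinks low genes, 1648 genes changed by at least 2-fold, against 3158 as reported, and PDSS1 and FNTB fell by 0.97 and 0.43. ACAT1, which did not pass, stood at 0.03 with library totals, on log2(FPKM + 1) and on log2(FPKM + 0.1). Library totals in place of TMM factors moved the median of all genes by 0.1 on the log2 scale and brought SQLE to -0.99. ACSS2 lost its call in 9 alternatives. The causes were not tested. With replicate number as a block 10805 genes changed, against 10821, and no call among the 8 genes was altered. The numbers do not pair the libraries: deviations of same-numbered libraries correlated at -0.02 to 0.014. CH25H gave no value with CPM of at least 1 in 3 libraries. Genes with a few counts, such as ABCG1, are beyond what this depth can compare.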

Other observations

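The branches that use isoprenoids other than for sterols were looked at beside FDPS, from which they depart. Of 12 such genes, 7 fell, 4 rose and 1 did not pass the test, with a median log2 fold change of -0.26. Across all genes tested, 41.3% fell and 41.5% rose. The largest fall was that of PDSS1, a subunit of the synthase of the ubiquinone side chain, which averaged 1.78 ± 0.25 CPM in PPM1G shRNA libraries and 7.74 ± 0.35 CPM in control libraries (SD, n = 3 each) and fell by 2.11 on the log2 scale (SE 0.15, adjusted p = 2.0e-14 in edgeR's quasi-likelihood test). Both subunits of the dolichol-making prenyltransferase fell, NUS1 by 1.37 (SE 0.05, adjusted p = 1.6e-22) and DHDDS by 0.67 (SE 0.07, adjusted p = 2.4e-10). FNTB, the beta subunit gene of protein farnesyltransferase, fell by 1.70 (SE 0.30, adjusted p = 5.3e-06) at a level below 2 CPM in every library. PDSS2, the partner of PDSS1, fell by 0.49 (SE 0.07, adjusted p = 1.7e-07).

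Of 3 genes that supply cytosolic acetyl-CoA to ACAT2, the citrate lyase gene ACLY fell by 0.54 (SE 0.03, adjusted p = 5.0e-17), averaging 185 ± 2.2 CPM in PPM1G shRNA libraries and 269 ± 5.9 CPM in control libraries. The mitochondrial citrate carrier gene SLC25A1 rose by 0.36 (SE 0.04, adjusted p = 2.3e-09). ACSS2, the acetate-activating enzyme gene, had a log2 fold change of -0.15 (SE 0.06, adjusted p = 0.031) with overlapping groups.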
